A study of Rattus norvegicus with 20 samples.

Results

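The 8 genes described here encode long chain acyl-CoA synthetases (Acsl1, Acsl3, Acsl4, Acsl5 and Acsl6) and medium chain acyl-CoA synthetases (Acsm2, Acsm3 and Acsm5). They were taken by current rat gene symbol, and all 8 were measured among the 14217 genes of the array, with 12 of its 31039 tested probe sets. Livers came from male Sprague-Dawley rats obtained at 4 weeks of age, housed individually and fed for 3 weeks. Each diet held 200 g/kg protein and 150 g/kg fat and was given to 5 of the rats analysed. The CS group received casein and soybean oil, and the CF group casein with fish oil at 50 g/kg in place of part of the soybean oil. The TS group received kori tofu (freeze-dried tofu) as the main protein with soybean oil, and the TF group kori tofu with the same amount of fish oil in place of all the added soybean oil. Part of the fat of both tofu diets came with the tofu itself, and tofu diets still held some casein. The animals had been deprived of food for a few hours beforehand, and the rats that ate most and least within a diet were not put on arrays.

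Acyl-CoA synthetases join a free fatty acid to coenzyme A at the cost of ATP, the step that every fatty acid passes before it can be oxidized, elongated or esterified. The Acsl enzymes sit on the endoplasmic reticulum, the outer mitochondrial membrane, peroxisomes and lipid droplets and take long chain fatty acids. The Acsm enzymes lie in the mitochondrial matrix, where they activate medium chain fatty acids and aromatic acids such as benzoate, which liver then conjugates with glycine. Fish oil supplies eicosapentaenoic and docosahexaenoic acid, ligands of the nuclear receptor PPAR alpha, and Acsl1 is a known target of that receptor. The comparisons asked how the protein source and the oil altered hepatic expression of these genes, alone and together.

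Expression was given as a z score per probe set and rat, on a log scale, where 0 lies near the middle of all probe sets of an array. A difference of 0.2 in z stands for a ratio of 1.41 in signal. The array medians lay between -0.10 and 0.022. A gene was read from its probe set with the highest mean z, and no ratio is given where a group mean was at or below the highest array median, which held for Acsl6, Acsm2 and Acsm3. These probe sets were 1370939_at for Acsl1, 1368177_at for Acsl3, 1387101_at for Acsl4, 1386926_at for Acsl5, 1368182_at for Acsl6, 1370436_at for Acsm2, 1383303_at for Acsm3 and 1377407_at for Acsm5. All 8 hepatocyte markers were well above that level, with a mean z over the list of 2.84 to 3.06 in single rats. The 5 lymphocyte markers measured were at or below it in every group, and 2 or 3 of 4 cholangiocyte markers were, depending on the group. Kupffer cell, endothelial and stellate cell markers were present at mean z values of 0.65 to 1.13, and of all marker lists only the erythroid gene Slc4a1 passed the test (tofu minus casein 0.25, adjusted p = 0.0327). The mean z of the 6 endothelial markers was 0.87 to 0.97 in CS rats and 0.96 to 1.09 in TS rats. That of the 4 erythroid markers was 0.66 to 0.80 in CS rats and 0.79 to 0.95 in TS rats. All 5 Kupffer cell and macrophage markers lay above 0 for tofu minus casein, and 4 of 5 lymphocyte markers lay below 0. The part of these marker differences in the values below was not tested. In whole liver, a change in the number of cells of a type cannot be told apart from a change in RNA per cell.

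None of the 8 synthetase genes passed the limma test, adjusted over 31039 probe sets, in any of the 8 comparisons. For tofu against casein, 0 of 8 were called where 0.557% of all probe sets were, and 2 of 8 (Acsm3 and Acsl5) had an unadjusted p under 0.05 where 10.2% did. For fish oil against soybean oil, 0 of 8 were called where 0.193% of all were, and 4 of 8 (Acsl1, Acsl5, Acsl6 and Acsm5) had an unadjusted p under 0.05 where 5.55% did. No protein by oil interaction was called (0 of 8 synthetases and 0% of all probe sets), and at an unadjusted p under 0.05 it held 0 of 8, where 3.43% of all probe sets did. The calls among all probe sets were 0.0709% for TS against CS, 0.0451% for CF against CS and 0.457% for TF against CS, each with 0 of 8 synthetases. They were 0.0677% for TF against CF and also 0.0677% for TF against TS, again with 0 of 8. At an unadjusted p under 0.05 these 5 comparisons held 2, 3, 4, 1 and 0 of the 8 genes, where 7.15%, 3.52%, 9.66%, 6.9% and 5.83% of all probe sets did.

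Under fish oil 7 of the 8 genes lay above their level under soybean oil, with a median difference of 0.13 in z against -0.0018 over all 14217 genes, of which 48.2% lay above 0. Acsl5 was the exception. For tofu against casein, 5 of 8 lay above 0, with a median of 0.026 against 0.011 over all genes, of which 58.0% lay above 0. The oil difference of each of the 8 genes kept its sign in every alternative processing and with any single rat left out, while the protein difference of Acsl1, Acsl3, Acsl6 and Acsm2 changed sign in at least 1 of them. The size of the oil difference was less steady. Without the 3 arrays least like the others it went from 0.11 to 0.056 for Acsl3 and from 0.37 to 0.25 for Acsm2. With quantile normalization it went from 0.078 to 0.050 for Acsl1, without the 4 arrays of lowest 5′ beta-actin signal from 0.19 to 0.30 for Acsm5, and without rat CS-7 from 0.041 to 0.0065 for Acsl4. The 7 stellate cell markers all lay below 0 for fish oil against soybean oil (median -0.067), 0 of 7 called and 3 of 7 with an unadjusted p under 0.05. So did all 5 Kupffer cell and macrophage markers (median -0.061) and all 4 erythroid markers (median -0.069), 0 of either with an unadjusted p under 0.05. Below 0 were also 4 of 6 endothelial, 3 of 4 cholangiocyte, 4 of 8 hepatocyte and 1 of 5 lymphocyte markers. The part of these marker differences in the oil differences of the 8 genes was not tested. The plot of z scores by rat shows the levels that these differences rest on.

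**Figure D1:**
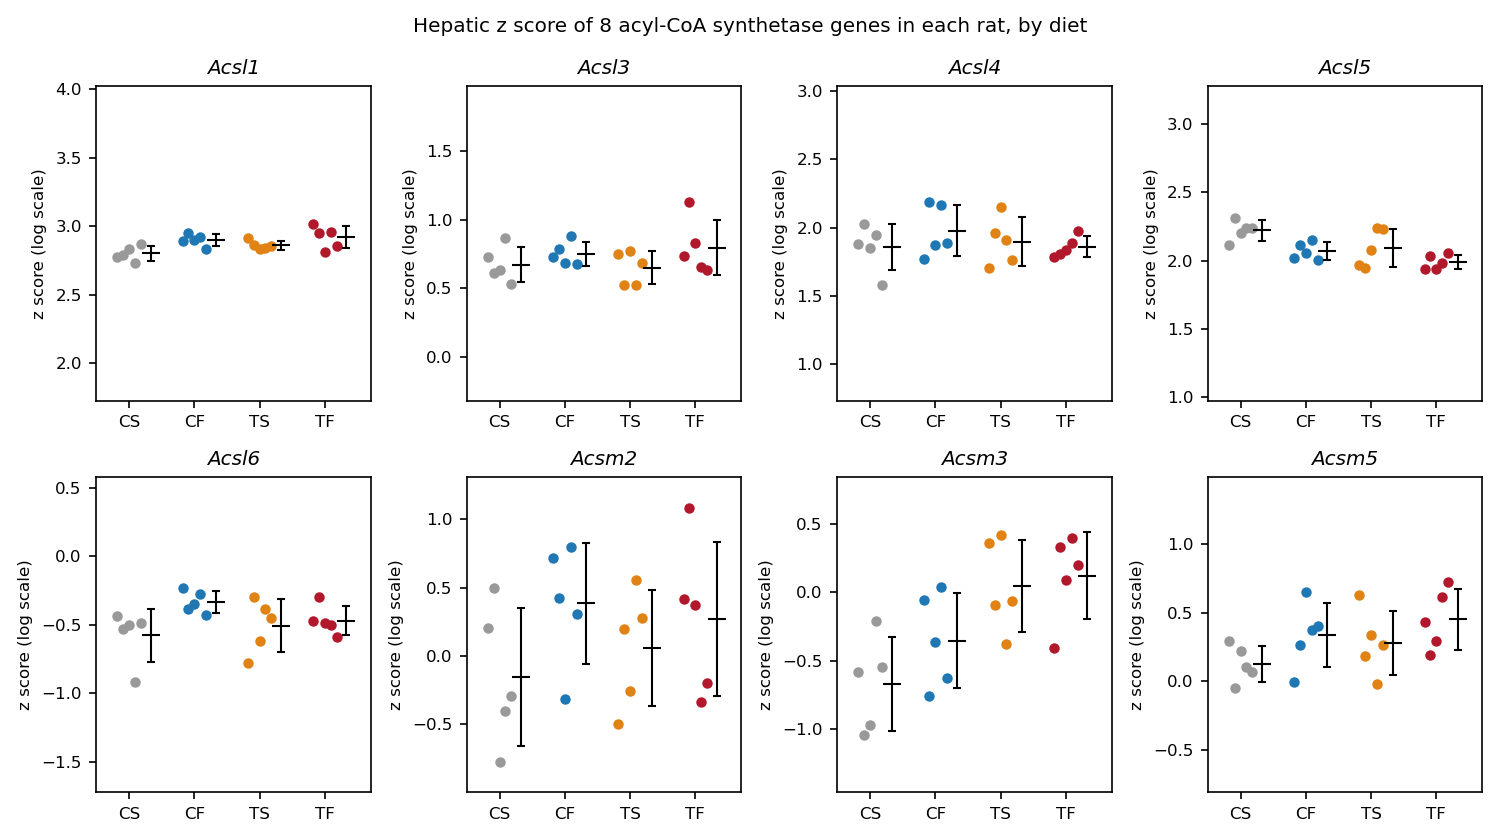
z score (log scale) of the probe set standing for each of the 8 genes in the liver of each rat, by diet (CS, casein and soybean oil; CF, casein and fish oil; TS, tofu and soybean oil; TF, tofu and fish oil). Points are rats, 5 per diet, the line and bar beside them are the mean and SD, and each panel spans the same width in z. Acsl1 and Acsl5 are tightly grouped, Acsm2 and Acsm3 spread widely, and the tofu groups of Acsm3 lie above the casein groups with overlap.

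Acsm3, a mitochondrial medium chain synthetase first described at a rat hypertension locus, had the largest protein difference of the 8 in size. Casein and soybean oil rats had z scores of -0.58, -1.04, -0.97, -0.21 and -0.55, and casein and fish oil rats -0.055, -0.75, -0.36, 0.038 and -0.63. Tofu and soybean oil rats had 0.36, -0.093, 0.42, -0.38 and -0.062, and tofu and fish oil rats -0.41, 0.33, 0.093, 0.40 and 0.20. All 10 tofu rats were above the mean of the casein rats, and the 2 sides overlapped, since the highest casein rats exceeded the lowest tofu rats. Means were -0.67 ± 0.34 for CS, -0.35 ± 0.35 for CF, 0.049 ± 0.34 for TS and 0.12 ± 0.32 for TF (SD, n = 5). In that order the step from CF to TS was larger than the SD of either group, and the steps from CS to CF and from TS to TF were within it. Tofu minus casein was 0.60 (SE 0.14, 95% CI 0.30 to 0.89, adjusted p = 0.0661). The oil difference was smaller in size at 0.19 (SE 0.14, 95% CI -0.099 to 0.49, adjusted p = 0.974). TF minus CS, the comparison of both changes together, was 0.79 (SE 0.20, adjusted p = 0.0989).

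The call for Acsm3 depended on the processing. Tofu minus casein passed the threshold with a variance trend and robust estimation (adjusted p = 0.0427), with array weights (adjusted p = 0.0475) and with a gene's probe sets averaged (adjusted p = 0.0389), where fewer features were tested. It also passed without rat CS-6 (adjusted p = 0.0369), TS-5 (adjusted p = 0.0405) or TF-3 (adjusted p = 0.0283), and with other single rats left out the adjusted p went up to 0.129, without CS-2. Without the 3 arrays least like the others (TS-7, TF-4 and TF-5) it was 0.204. With rat number as a block it was 0.00812, the lowest of all settings, and the SE of the difference was 0.084 against 0.14. What the number stands for is not given. Only TF-3 had the number 3, so the block left this rat, the lowest tofu rat for Acsm3, without weight in the difference. Acsm3 lay above its diet means in the rats numbered 6 (0.46 in CS, 0.39 in CF, 0.28 in TF), 1 and 4. It lay below them in those numbered 2 (-0.37 in CS, -0.40 in CF, -0.14 in TS) and 5, and on both sides in those numbered 7. The rats numbered 1 and TF-3 had low 5′ beta-actin signal (1.30 to 1.42, at least 1.86 in the others). This pattern was not tested. The block also called TS minus CS (adjusted p = 0.0387) and TF minus CS (adjusted p = 0.0247). Tofu minus casein stayed between 0.55 and 0.67 throughout. Acsm3 has a single probe set here, so no second probe set could be set beside it.

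Acsm2, which activates medium chain and benzoic acids, and Acsm5, a less studied member of the family, are direct neighbours of each other on rat chromosome 1. Acsm3 lies further along the same stretch, with Acsm1 and Acsm4 among the genes between. Upstream sequences of these 3 genes are shown because they share this stretch and hold the member with the largest protein difference, Acsm3, and the pair that varied against each other, Acsm2 and Acsm5. They run from 250 bases before to 50 after the start site in RefSeq (build GRCr8, plus strand, 5′ to 3′), with AGGTCA, the element bound by many nuclear receptors, in capitals where it occurs (TGACCT is the same element on the other strand).
Acsm5, chr1:183302259-183302558: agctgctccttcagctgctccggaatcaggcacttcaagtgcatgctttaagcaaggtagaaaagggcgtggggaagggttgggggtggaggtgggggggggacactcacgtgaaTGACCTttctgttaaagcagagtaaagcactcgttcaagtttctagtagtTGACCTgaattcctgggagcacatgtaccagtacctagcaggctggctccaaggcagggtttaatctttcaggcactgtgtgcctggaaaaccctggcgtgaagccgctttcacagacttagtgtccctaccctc
Acsm2, chr1:183347455-183347754: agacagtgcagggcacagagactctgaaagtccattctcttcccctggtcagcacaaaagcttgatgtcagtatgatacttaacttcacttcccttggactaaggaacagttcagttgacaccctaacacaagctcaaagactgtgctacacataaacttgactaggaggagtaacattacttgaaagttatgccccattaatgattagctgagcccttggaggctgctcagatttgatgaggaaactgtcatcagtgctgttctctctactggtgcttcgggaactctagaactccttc
Acsm3, chr1:183564402-183564701: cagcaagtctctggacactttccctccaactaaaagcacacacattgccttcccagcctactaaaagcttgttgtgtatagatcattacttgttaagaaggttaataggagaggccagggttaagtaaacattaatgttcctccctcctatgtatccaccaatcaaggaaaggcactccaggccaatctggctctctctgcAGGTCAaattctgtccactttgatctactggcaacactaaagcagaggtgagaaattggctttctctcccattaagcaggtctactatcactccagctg
Acsm3 held AGGTCA once, starting 49 bases before the start site, Acsm5 held it on the minus strand from 135 and from 85 bases before, and Acsm2 did not hold it. Of the 8 synthetase promoters, 2 held AGGTCA on either strand, against 16.2% of 33469 rat promoters of the same 300 bases. A direct repeat of AGGTCA with 1 base between, the form that PPAR alpha binds, was in 0 of 8 and in 0.0538% of all. The sterol element TCACNCCAC was in 0 of 8 and in 1.12% of all. A match is a string of letters and not a binding site.

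Acsm2 had the widest spread between rats of the same diet among the 8. Casein and soybean oil rats had z scores of 0.21, 0.50, -0.77, -0.40 and -0.29, and casein and fish oil rats 0.71, 0.43, -0.32, 0.80 and 0.30. Tofu and soybean oil rats had -0.50, 0.20, -0.26, 0.55 and 0.28, and tofu and fish oil rats 0.42, 1.08, 0.37, -0.34 and -0.20. The 4 diets overlapped, and its SD within diets, 0.49, was above that of 99.4% of all probe sets. Means were -0.15 ± 0.51 for CS, 0.056 ± 0.42 for TS, 0.27 ± 0.56 for TF and 0.39 ± 0.44 for CF (SD, n = 5), and no step between neighbours in this order exceeded the SDs. The fish oil difference was 0.37 (SE 0.20, 95% CI -0.049 to 0.80, adjusted p = 0.940). The tofu difference was 0.045 (95% CI -0.38 to 0.47), so that differences of either sign up to the size seen for the oil lie within the interval.

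Acsm5 stood at 0.12 ± 0.13 in CS, 0.28 ± 0.24 in TS, 0.34 ± 0.24 in CF and 0.45 ± 0.22 in TF (mean z ± SD, n = 5). Casein and soybean oil rats had 0.29, -0.052, 0.22, 0.10 and 0.066, and casein and fish oil rats -0.0030, 0.26, 0.65, 0.38 and 0.40. Tofu and soybean oil rats had 0.63, 0.18, 0.34, -0.018 and 0.26, and tofu and fish oil rats 0.44, 0.19, 0.29, 0.62 and 0.73. The diets overlapped, no step between neighbouring groups exceeded the SDs, and 8 of 10 fish oil rats were above the soybean oil mean. The oil difference was 0.19 (SE 0.089, 95% CI 0.0058 to 0.38, adjusted p = 0.887), a ratio of 1.39, and that for the protein was 0.13 (SE 0.089, adjusted p = 0.657).

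Within diets, Acsm2 and Acsm5 varied in opposite directions in these rats. The correlations were added after the values had been seen, and the adjustment below does not cover that choice. Over the 20 rats, the deviations of both genes from their diet means correlated with Pearson's r = -0.76 (permutation within diets, two-sided p = 0.00036, adjusted p = 0.0101 over the 28 pairs of the 8 genes). Spearman's rho was -0.70 (permutation p = 0.00258, adjusted p = 0.0722), which did not pass after adjustment. Without the 2 rats farthest from the median of Acsm2, CF-5 and TF-4, r was -0.69. It was -0.87 without the 4 arrays of lowest 5′ beta-actin signal, -0.72 without the 3 arrays least like the others, -0.76 after quantile normalization, and between -0.85 and -0.72 with any single rat left out. Of the other 27 pairs none passed the adjustment. The next was Acsl6 with Acsm2 at r = 0.58 (permutation p = 0.0121, adjusted p = 0.170). Both Acsm2 and Acsm5 are read from 1 probe set each, and the part that array quality or sequence shared within the family has in this relation was otherwise not tested.

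**Figure D2:**
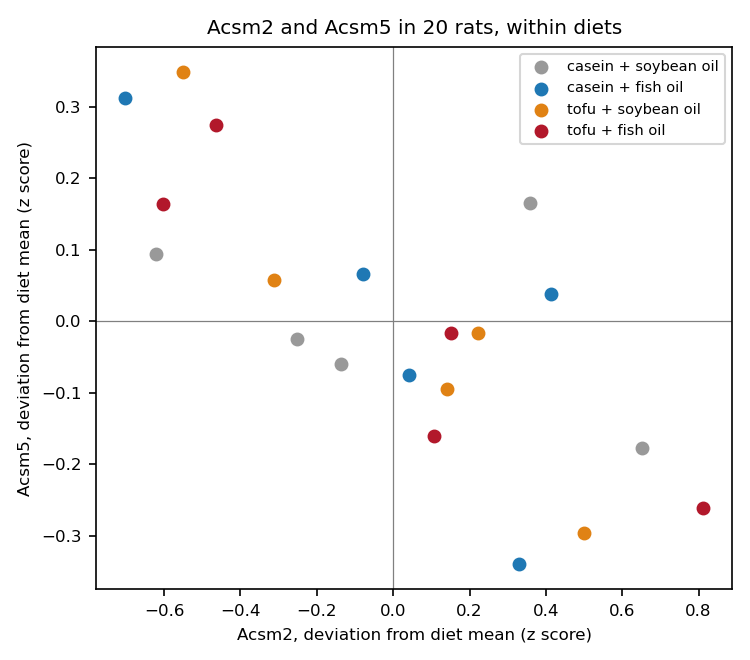
Deviation of Acsm5 from its diet mean against that of Acsm2 (both in z score, log scale), 1 point per rat, coloured by diet. Rats with more Acsm2 than their diet mean mostly had less Acsm5, with r = -0.76 over 20 rats.

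Acsl1, the main long chain synthetase of liver and a known PPAR alpha target, was high and tightly held in all rats. Casein and soybean oil rats had z scores of 2.78, 2.79, 2.83, 2.73 and 2.87, and casein and fish oil rats 2.89, 2.95, 2.90, 2.92 and 2.83. Tofu and soybean oil rats had 2.91, 2.87, 2.83, 2.84 and 2.85, and tofu and fish oil rats 3.01, 2.95, 2.81, 2.96 and 2.86. In 9 of 10 fish oil rats Acsl1 was above the soybean oil mean, with overlap between the sides. Means were 2.80 ± 0.053 for CS, 2.86 ± 0.031 for TS, 2.90 ± 0.044 for CF and 2.92 ± 0.081 for TF (SD, n = 5). The step from CS to TS exceeded both SDs, while TS, CF and TF did not differ from their neighbours beyond them. For the oil the difference was 0.078 (SE 0.029, 95% CI 0.018 to 0.14, adjusted p = 0.699), a ratio of 1.14 with bounds of 1.03 and 1.27. The second bright probe set gave 0.087 (adjusted p = 0.642), and the third, which lay below the array medians, gave 0.067. For the protein it was 0.039 (95% CI -0.020 to 0.099, adjusted p = 0.688) and turned to -0.024 after quantile normalization.

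Acsl5, a synthetase of mitochondria and endoplasmic reticulum that channels fatty acids towards triacylglycerol, was the only one of the 8 below 0 for both the oil and the protein. Casein and soybean oil rats had z scores of 2.11, 2.31, 2.20, 2.24 and 2.24, and casein and fish oil rats 2.02, 2.11, 2.05, 2.15 and 2.001. Tofu and soybean oil rats had 1.96, 1.94, 2.08, 2.23 and 2.23, and tofu and fish oil rats 1.94, 2.04, 1.94, 1.98 and 2.05. All 5 TF rats were below all 5 CS rats, which 0.957% of all probe sets showed in this direction, and all 10 fish oil rats were below the soybean oil mean. Means were 1.99 ± 0.054 for TF, 2.07 ± 0.065 for CF, 2.09 ± 0.14 for TS and 2.22 ± 0.074 for CS (SD, n = 5). The step from TF to CF exceeded both SDs, and the others did not. Fish oil minus soybean oil was -0.13 (SE 0.041, 95% CI -0.21 to -0.040, adjusted p = 0.582), a level 1.24-fold lower. The protein difference was -0.10 (SE 0.041, 95% CI -0.19 to -0.019, adjusted p = 0.362), a level 1.196-fold lower.

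TF minus CS for Acsl5 was -0.23 (SE 0.058, 95% CI -0.35 to -0.11, adjusted p = 0.0981), a level 1.48-fold lower. This passed the threshold among bright probe sets only (adjusted p = 0.0322), with a variance trend and robust estimation (adjusted p = 0.0449) and with the mean of its probe sets (adjusted p = 0.0373). It did not pass in the other alternatives or with any single rat left out, where the adjusted p ran from 0.0764 to 0.259. The second Acsl5 probe set gave the same signs, with TF minus CS at -0.20 (adjusted p = 0.212) and again no overlap of the 2 groups. By that probe set tofu minus casein was -0.13 (adjusted p = 0.244), with all 10 tofu rats below the casein mean, and fish oil minus soybean oil was -0.068 (adjusted p = 0.961). The interaction was 0.052 (95% CI -0.12 to 0.22), so that the data did not separate the oil difference on casein from that on tofu.

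Acsl3, which works on the endoplasmic reticulum and on growing lipid droplets, ranged from 0.53 to 1.13 over the 20 rats. Means were 0.65 ± 0.12 for TS, 0.67 ± 0.13 for CS, 0.75 ± 0.087 for CF and 0.80 ± 0.20 for TF (SD, n = 5), with no step beyond the SDs. Fish oil minus soybean oil was 0.11 (95% CI -0.014 to 0.24, adjusted p = 0.940), and tofu minus casein was 0.012 (95% CI -0.11 to 0.14). Acsl4, which prefers arachidonic and eicosapentaenoic acid, ranged from 1.58 to 2.19. Its means were 1.86 ± 0.17 for CS, 1.86 ± 0.076 for TF, 1.90 ± 0.18 for TS and 1.98 ± 0.19 for CF, again with no step beyond the SDs. Fish oil minus soybean oil was 0.041 for Acsl4 (95% CI -0.10 to 0.18), a ratio of 1.07 that could lie between 0.840 and 1.37. The protein difference was -0.039 (95% CI -0.18 to 0.10).

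Acsl6, best known from brain, where it takes up docosahexaenoic acid, was below the array medians in every diet. Casein and soybean oil rats had z scores of -0.44, -0.53, -0.50, -0.92 and -0.49, and casein and fish oil rats -0.23, -0.38, -0.35, -0.27 and -0.43. Tofu and soybean oil rats had -0.78, -0.30, -0.62, -0.38 and -0.45, and tofu and fish oil rats -0.47, -0.30, -0.49, -0.50 and -0.59. All 5 CF rats were above all 5 CS rats, which 0.535% of all probe sets showed in this direction, while the tofu groups overlapped. By the dimmer probe set of Acsl6 CF minus CS was -0.065, with 4 of 5 CF rats below the CS mean. Fish oil minus soybean oil was 0.14 (SE 0.065, 95% CI 0.0027 to 0.28, adjusted p = 0.891). The 2 probe sets also disagreed on the protein, with tofu minus casein at -0.033 (95% CI -0.17 to 0.10) by the brighter and -0.30 (95% CI -0.45 to -0.14, adjusted p = 0.0860) by the dimmer.

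**Figure D3:**
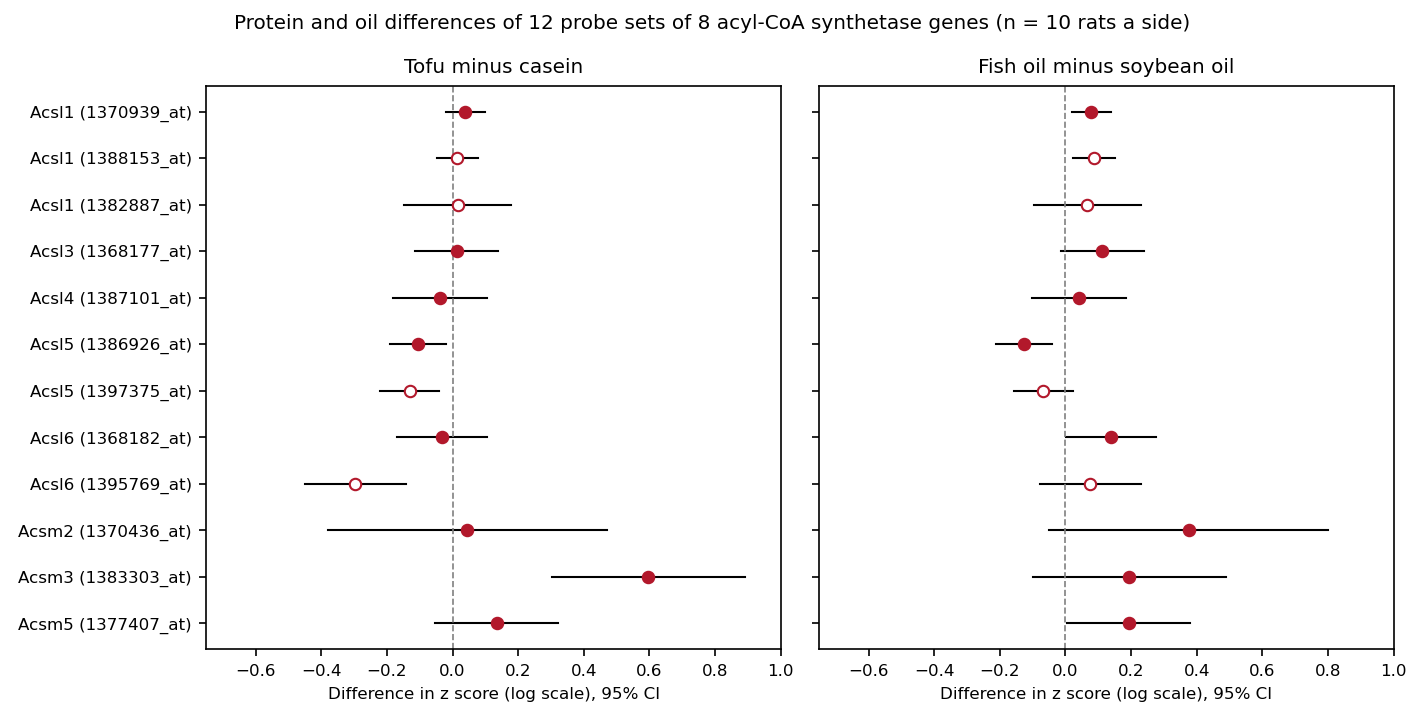
Difference in z score (log scale) for tofu minus casein and for fish oil minus soybean oil, with 95% confidence intervals, for all 12 probe sets of the 8 genes (10 rats a side). Filled points are the probe sets standing for a gene and open points its other probe sets. No adjusted p was under 0.05, Acsm3 stands highest under tofu at 0.60, and Acsl5 is the only gene below 0 under fish oil.

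Other genes of fatty acid handling set these values in context. Of 22 PPAR alpha targets measured, 10 rose under fish oil and 0 fell, where 0.177% of all probe sets and 40 of 14217 genes rose. The median difference of the targets was 0.15 against 0.13 for the 8 synthetases. The synthetases were dimmer, with a median mean z of 0.51 against 1.65. Their brightest members, Acsl1, Acsl5 and Acsl4, lay at 0.078, -0.13 and 0.041 for the oil, below the median of the 8. Among the PPAR alpha targets Acot2, a mitochondrial thioesterase that splits the acyl-CoA the synthetases make, rose by 0.60 in z (adjusted p = 1.05e-05). Its cytosolic relative Acot1 rose by 2.31 (adjusted p = 1.54e-05), and the fatty acid hydroxylase Cyp4a1 by 0.53 (adjusted p = 2.56e-05). Of 11 thioesterases 4 rose, of 15 genes of mitochondrial entry and beta-oxidation 6 rose, with the lowest adjusted p for Eci1 at 0.60 (adjusted p = 1.05e-05) and Hadhb at 0.22 (adjusted p = 0.00115), and of 9 peroxisomal genes 4 rose, with the lowest for Ech1 at 0.51 (adjusted p = 1.44e-05) and Ehhadh at 0.51 (adjusted p = 0.000317). Several of these genes are on more than 1 of the lists. All 15 genes of mitochondrial entry and beta-oxidation lay above 0 (median 0.14), 12 of them with an unadjusted p under 0.05. Slc27a2, a fatty acid transport protein that is itself a very long chain acyl-CoA synthetase, was the only one of 5 Slc27 genes called, at 0.16 (SE 0.030, adjusted p = 0.0266, a ratio of 1.31).

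Under tofu 12 of 16 SREBP-1c targets fell, where 0.258% of all probe sets and 57 of 14217 genes fell. The median of these targets was -0.40 against 0.026 for the 8 synthetases. Pnpla3, a lipid droplet protein, fell by 1.93 (adjusted p = 6.72e-10), and the lipogenic enzyme Acly fell by 0.44 (adjusted p = 0.000161). Of the PPAR alpha targets 4 fell under tofu and 0 rose, with Pdk4 at -0.55 (adjusted p = 0.00422) and Fgf21 at -0.50 (adjusted p = 0.00580). Dbi, the acyl-CoA binding protein that carries the product of the synthetases, was the only one of 7 acyl-CoA binding proteins called, at -0.20 (adjusted p = 0.00924). None of 8 other acyl-CoA synthetases was called for either factor, and 1 of 8 had an unadjusted p under 0.05 for each. Their medians were -0.019 for the protein and -0.022 for the oil. None of 15 glycerolipid acyltransferases, which use acyl-CoA for triacylglycerol and phospholipid, and neither of 2 genes of glycine conjugation was called, with 2 and 0 of the acyltransferases and 0 and 0 of the conjugation genes at an unadjusted p under 0.05 for the protein and the oil.

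**Figure D4:**
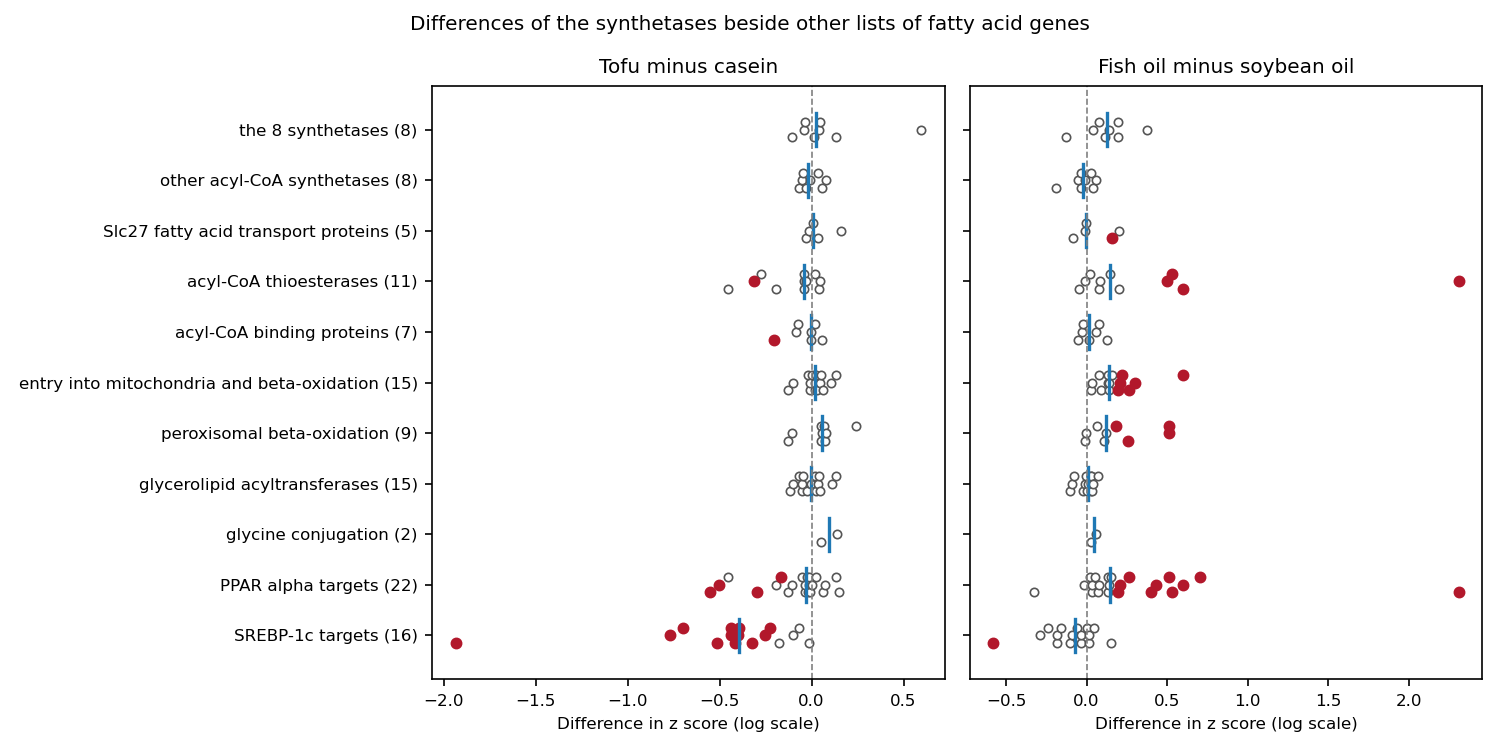
Difference in z score (log scale) of each gene for tofu minus casein and for fish oil minus soybean oil, by list, with the number of genes measured in brackets. Filled points have an adjusted p under 0.05, open points do not, and the upright bar is the list's median. No point of the 8 synthetases is filled, while 10 of 22 PPAR alpha targets are filled on the right and 12 of 16 SREBP-1c targets on the left.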

How the data were processed

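Hepatic RNA of 20 rats was measured on 1 Affymetrix rat genome expression array each. The deposited values are z scores, 1 per probe set and array, which the authors obtained by SuperNORM normalization on a log scale. Background treatment, probe set summary and software versions are not given in the sources used here, no detection call was used, and the number of arrays limits the precision.

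Probe sets were named from the platform annotation, with 20826 carrying 1 symbol, 436 several and 9780 none, and symbols were updated by Entrez ID to RefSeq (20758 of 20826). The 31039 probe sets with at least 3 values in each group, control probe sets left out, were tested. A fit of 4 group means with limma 3.58.1 in R 4.3.3 gave the 2 main effects, their interaction and 5 differences between groups, and p-values were adjusted by Benjamini-Hochberg over all 31039 with a threshold of 0.05. The fit was tested on simulated data. Of simulated differences of 0.2 in z it recovered 42% for the protein and 43% for the oil. Of those of 0.4 it recovered 85% and 80%, so that a smaller difference can be missed. These shares are over probe sets drawn at random. Acsm2 and Acsm3 had SDs within diets above those of 99.4% and 96.9% of all probe sets, so larger differences in them can be missed too. A gene was represented by its probe set with the highest mean z. Each array was a separate animal. Correlations used 100000 permutations within diets.

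The 8 genes, the gene lists and the motifs were chosen with earlier results of these data known, and the correlations among the 8 genes were added after their values had been seen. All 8 genes were to be described, with the called genes of each list (at most 4 per list and effect, by adjusted p). Genes of like pattern were to be named only for a member that was called, so none are. Promoters are RefSeq sequences of GRCr8, found for all 8 genes. Array weights, other scalings, variance models and subsets of arrays were tried as alternatives.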

Additional observations from a re-analysis of the deposited data

Results flagged for a closer look

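The Acsl6 value of rat CS-6 stood apart from those of the other casein and soybean oil rats. Its z score was -0.92, and the other 4 rats of the group lay between -0.53 and -0.44. The gap took 0.800 of the range of the group. This was 1 of 32 groups of 5 rats examined for the 8 genes, and chance takes about 1 of 20 groups past the threshold used, 0.71. Without this rat the oil difference of Acsl6 was 0.097 (SE 0.055, adjusted p = 0.989 by limma), the lowest of the values with any single rat left out, against 0.14 with all rats.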

How the results depend on the processing

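No member was called for the oil, the interaction, CF minus CS, TF minus CF or TF minus TS in any alternative. For the protein, 1 member (Acsm3) was called with a variance trend and robust estimation, with array weights, with rat number as a block and with the mean of all probe sets, and 0 to 1 with a rat left out. For TS minus CS, 1 (Acsm3) was called with the block. For TF minus CS, 1 was called among bright probe sets, with the variance trend and with the mean of probe sets (Acsl5) and with the block (Acsm3), and 0 to 1 with a rat left out. The cause was not tested. Among 22 same-numbered pairs of different diets 1 correlated above 0.1 in its deviations (median 0.037), and of 128 other pairs 8 did (median -0.0080). Of 19 rats with a same-numbered rat on another diet, 6 were most like one of their own number. How many would be so by chance was not worked out. With the replicate block Acsm3 had a protein difference of 0.63 (adjusted p = 0.00812). TS minus CS of Acsm3 had an adjusted p of 0.0387 and TF minus CS of 0.0247. The calls over all probe sets went from 173 to 91 for the protein and from 60 to 27 for the oil. TF-3 was the only rat numbered 3, so the block gave it no weight in these differences.

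Among the uncalled protein and interaction differences, the sign turned as follows. The protein difference of Acsl1 became -0.024 with quantile normalization. That of Acsl3 became -0.019 with array weights, -0.030 with the replicate block and -0.053 without the 3 arrays least like the others (TS-7, TF-4 and TF-5), and that of Acsm2 became -0.045, -0.0080 and -0.14 under these. That of Acsl6 became 0.031 without the 4 arrays of lowest 5′ beta-actin (TF-3 and the rats numbered 1 of the other diets), and the interaction of Acsm3 became 0.020 there. The interaction became 0.0097 for Acsl1 with equal medians and interquartile ranges, 0.065 for Acsl1 and 0.037 for Acsl6 with the mean of probe sets, -0.047 for Acsl3 and 0.098 for Acsm5 without the 3 arrays, and 0.0095 for Acsm5 with array weights. TF minus CS of Acsl4, 0.0021, became -0.022 with quantile normalization and -0.067 at the lowest with a rat left out (CS-7), and that of Acsl6, 0.11, became -0.057 with the mean of probe sets. With single rats left out the protein difference ran from -0.029 to 0.036 for Acsl3, -0.076 to 0.00082 for Acsl6 and -0.056 to 0.13 for Acsm2, and the interaction from -0.017 to 0.11 for Acsl3 and -0.12 to 0.048 for Acsm5. Calls over all probe sets for the protein were 347 among bright probe sets, 289 with the variance trend, 72 without the 4 arrays, 74 without the 3 arrays and 114 at the lowest with a rat left out (CS-2). For the oil they were 34 without the 3 arrays. Over the alternatives they ran from 5 to 42 for TS minus CS (against 22), 0 to 28 for CF minus CS (against 14), 43 to 287 for TF minus CS (against 142), 6 to 53 for TF minus CF (against 21) and 4 to 28 for TF minus TS (against 21). The filter to bright probe sets left out Acsl6 and Acsm3. The settings for the relation of Acsm2 and Acsm5 were added after seeing the data, and r kept its sign in all of them. The precision is set by 5 arrays a diet.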

Other observations

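RGD1559600, a gene that lies between Acsm2 and Acsm1 in the RefSeq order of chromosome 1, was looked at after its values were seen. Its mean z was 0.085 ± 0.15 for CS, 0.18 ± 0.046 for CF, 0.25 ± 0.13 for TS and 0.44 ± 0.080 for TF (SD, n = 5). TF minus CS was 0.36 (SE 0.069), with an adjusted p of 0.0215 by limma. Tofu minus casein was 0.22 (SE 0.049, adjusted p = 0.0509) and fish oil minus soybean oil was 0.14 (SE 0.049, adjusted p = 0.642). Acsm1, the next gene, stood at 2.39 in CS and 2.53 in TF, a difference of 0.14 (SE 0.041, adjusted p = 0.211).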
